A study of Mus musculus with 24 samples.

Results

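The accessible chromatin around 7 genes that establish and maintain the macrophage lineage was examined in mouse bone marrow-derived macrophages: Spi1, Cebpa, Cebpb, Runx1, Maf and Mef2c, which encode transcription factors, and Csf1r, which encodes the receptor for macrophage colony-stimulating factor and is not a transcription factor. A region of open chromatin (a peak) was counted for one of these genes where the authors' deposited differential table gave it that gene's name, which applied to 136 peaks, or where it had no row there and its midpoint lay within 50 kb of a listed transcription start site of the gene that was nearer than any other, which applied to 51 peaks. This gave 187 of the 144411 peaks of the series. Maf had 66 of them, Runx1 59, Mef2c 28, Cebpa 16, Spi1 7, Csf1r 7 and Cebpb 4. Nearness to a start site does not show that a peak acts on that gene, and 16 of the Maf peaks lie inside the neighbouring gene Wwox.

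The series measured chromatin by ATAC-seq, in which the Tn5 transposase cuts and tags open DNA, in GRIP1 knockout (KO) and wild-type (WT) macrophages. GRIP1, encoded by Ncoa2, is a coregulator of the glucocorticoid receptor. KO macrophages were GRIP1fl/fl and WT macrophages GRIP1wt/wt, and both were LysM-Cre+/+. In both genotypes the mice were C57BL/6 males of 8 to 10 weeks, and the Cre, driven by the lysozyme M promoter, acts in myeloid cells. Marrow was differentiated for 5 days with L-cell conditioned medium, a source of macrophage colony-stimulating factor, and then given 100 nM dexamethasone (Dex, a synthetic glucocorticoid), 10 ng/ml interleukin 4 (IL4) or vehicle. All titles state 24 h of treatment; for vehicle, the treatment field states 25 h. Each of the 6 groups (KO Dex, KO IL4, KO vehicle, WT Dex, WT IL4 and WT vehicle) had 4 libraries. Whether these 4 were separate animals is not stated, so p-values reflect library-to-library spread, which may be technical.

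PU.1, the product of Spi1, opens chromatin at macrophage enhancers and binds there with C/EBP and RUNX factors; C/EBPα is needed for the step to granulocyte-monocyte progenitors, C/EBPβ is induced in stimulated macrophages, and RUNX1 is needed for blood stem cells to form and acts on Spi1 and Csf1r. Signalling through the Csf1r product keeps macrophages alive, c-MAF (from Maf) restrains the renewal of mature macrophages and drives anti-inflammatory genes, and MEF2C takes part in lymphoid and myeloid choices in progenitors. Each of these genes is read from a promoter and from distant enhancers, and Runx1 has a distal and a proximal promoter.

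The promoter sequences are shown because the members differed in the kind of promoter that was open. Windows of 250 bases upstream of the start site came from a RefSeq table (build GRCm38.p6, the reference that mm10 is made from). Windows of 4 of the 7 genes were used here. Of these, the Cebpa, Cebpb and Runx1 windows are printed 5′ to 3′ on the gene's strand, with every CpG in capitals.
Cebpa, chr7:35119043-35119292, plus strand: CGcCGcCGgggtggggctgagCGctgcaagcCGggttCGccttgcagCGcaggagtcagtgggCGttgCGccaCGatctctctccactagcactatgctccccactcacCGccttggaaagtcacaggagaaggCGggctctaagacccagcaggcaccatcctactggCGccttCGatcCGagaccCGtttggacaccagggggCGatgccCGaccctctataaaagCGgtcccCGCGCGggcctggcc
Cebpb, chr2:167688665-167688914, plus strand: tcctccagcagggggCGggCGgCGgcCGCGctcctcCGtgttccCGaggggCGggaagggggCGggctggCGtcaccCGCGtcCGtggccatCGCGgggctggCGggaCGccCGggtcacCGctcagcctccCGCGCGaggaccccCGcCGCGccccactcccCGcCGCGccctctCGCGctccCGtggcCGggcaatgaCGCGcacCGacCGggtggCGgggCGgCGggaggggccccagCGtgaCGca
Runx1 proximal, chr16:92697330-92697579, minus strand: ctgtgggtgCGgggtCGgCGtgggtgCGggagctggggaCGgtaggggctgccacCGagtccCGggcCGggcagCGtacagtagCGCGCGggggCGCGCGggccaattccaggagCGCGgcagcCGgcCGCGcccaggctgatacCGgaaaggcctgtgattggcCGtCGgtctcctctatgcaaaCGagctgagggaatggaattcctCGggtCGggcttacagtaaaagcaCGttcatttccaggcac
Runx1 distal, chr16:92826075-92826324, minus strand: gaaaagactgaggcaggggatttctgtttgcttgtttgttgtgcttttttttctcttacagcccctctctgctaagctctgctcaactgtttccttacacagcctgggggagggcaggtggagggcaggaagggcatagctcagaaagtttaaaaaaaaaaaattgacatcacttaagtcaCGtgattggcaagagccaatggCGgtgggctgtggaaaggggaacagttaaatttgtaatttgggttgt
The Cebpb window held 41 CpGs, the Runx1 proximal window 27 and the Cebpa window 22, whereas the Runx1 distal window held 2; the median of all 32851 windows in the table was 6. The Runx1 distal window was also lower in G and C, at 45.6%, than the other three, at 81.6% for Cebpb, 67.6% for Runx1 proximal and 66.4% for Cebpa. The start sites of the Runx1 promoters lie 128.7 kb apart. None of the 8 motif strings searched on both strands was in these 4 windows: PU.1 GAGGAAGT, C/EBP TTGCNNAA, RUNX TGTGGT, MAF TGCTGAN, AP-1 TGANTCA, and longer strings for MEF2, the glucocorticoid receptor and STAT6. Of all windows, 2.44% held the PU.1 string, 9.56% the C/EBP string, 14.0% the RUNX string, 16.0% the MAF string, 3.20% the MEF2 string, 6.75% the AP-1 string, 0.387% the glucocorticoid receptor string and 5.85% the STAT6 string. Of the 3 Mef2c windows in the table, which are not printed, 1 held the AP-1 and the MAF string. The strings TGCTGAN and TGANTCA can overlap each other, but in that window they lay apart. AP-1 was at 137 to 131 and MAF at 104 to 98 bases upstream of the start.

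The libraries held 5820149 to 21939330 counts in peaks, and WT Dex replicate 2 was the shallowest. Levels are given as CPM, the counts of a peak relative to the library size, with library sizes scaled by the trimmed mean of M-values (TMM). Macrophage markers, Csf1r among them, had a tested promoter peak for 8 of 8 genes, with a summed level of 241 to 251 CPM in WT IL4, 312 to 335 CPM in WT Dex and 277 to 303 CPM in WT vehicle. Dendritic cell markers had one for 5 of 7 genes, with 69.4 to 76.1 CPM in WT IL4, 47.2 to 50.6 CPM in WT Dex and 44.5 to 51.5 CPM in WT vehicle, and Xcr1 and Clec9a had none. T and NK cell markers had one for 1 of 7 genes, with 22.1 to 26.1 CPM in WT IL4, 8.49 to 11.98 CPM in WT Dex and 9.99 to 13.6 CPM in WT vehicle, and Cd3e, Cd3d, Cd3g, Lck, Cd247 and Ncr1 had none. Erythroid and megakaryocyte markers had one for 2 of 6 genes, with 31.7 to 34.8 CPM in WT IL4, 20.2 to 20.9 CPM in WT Dex and 19.1 to 22.96 CPM in WT vehicle, and Gata1, Klf1, Hbb-b1 and Pf4 had none. Fibroblast and stroma markers had one for 1 of 6 genes, with 5.30 to 7.08 CPM in WT IL4, 2.80 to 3.45 CPM in WT Dex and 2.46 to 2.89 CPM in WT vehicle, and Col1a1, Col1a2, Col3a1, Pdgfra and Dcn had none. The WT IL4 and WT vehicle ranges of these 5 sums did not overlap, nor did the WT Dex and WT vehicle ranges of the macrophage sum, and their part in the results below was not tested. For neutrophil, B cell and mast cell and basophil markers, the WT IL4 and WT Dex ranges both overlapped that of WT vehicle. The sums cover from 1 to 11 peaks, so they do not compare cell types. Per kb of peak, averaged over all 24 libraries, macrophage markers had 26.1 CPM and erythroid and megakaryocyte markers 19.6. T and NK cell markers had 16.7, dendritic cell markers 14.8 and neutrophil markers, with 5 of 8 genes, 14.5. B cell, fibroblast and mast cell markers had 6.84, 6.59 and 3.50. In bulk libraries, fewer cells with an open site and less opening per cell cannot be told apart. Around Ncoa2 itself, 21 peaks were tested; with vehicle 1 was higher and 1 lower in KO than in WT, and whether any covers the deleted part was not tested. The strongest difference, 49.7 kb from its start, was higher in KO than in WT by 2.96 ± 0.21 with vehicle (log2 fold change ± SE, adjusted p = 6.42e-20).

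Of the 187 peaks, 180 had enough counts to be tested. They had a median of 50 counts per library, against 33 for all tested peaks. Of the 136 members in the deposited table, 44 (32.4%) overlapped a FANTOM enhancer, the authors' deposited annotation of enhancers defined by transcription, against 9911 of all 71942 peaks there (13.8%). By position, 11 were promoter peaks within 1 kb of a listed start, 59 lay inside the gene, 58 upstream and 59 downstream.

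Per kilobase of peak, promoter levels were highest at Csf1r and lowest at Mef2c. The order depends on peak length, as the Csf1r promoter peak was 585 bases long and the others 1232 to 2299. In CPM without division by length, the Csf1r promoter had the lowest mean of these promoters in WT vehicle. In WT vehicle libraries the Csf1r promoter had 40.2 ± 2.7 CPM per kb (mean ± SD, n = 4), Cebpb 36.5 ± 0.92, Cebpa 32.8 ± 0.99, the proximal Runx1 promoter 26.7 ± 1.0, Spi1 24.9 ± 2.1, Maf 22.6 ± 0.88, the distal Runx1 promoter 20.3 ± 0.99 and Mef2c 16.6 ± 1.3. In this order, the ranges over libraries of Csf1r and Cebpb did not overlap, nor did those of Cebpb and Cebpa, of Cebpa and proximal Runx1, of Maf and distal Runx1, and of distal Runx1 and Mef2c. The range of Spi1 overlapped those of proximal Runx1 and of Maf, while those of proximal Runx1 and Maf did not overlap each other. Several distal sites were higher per kilobase than the promoter of their own gene: averaged over all 24 libraries, a Runx1 peak 38.3 kb upstream of the distal start had 60.7 CPM per kb, a Spi1 peak 10.2 kb upstream had 55.1 CPM per kb, and a Csf1r peak 2.52 kb downstream of its start, in the region of the known intronic enhancer called FIRE, had 52.3 CPM per kb. Their lengths differed too: this Spi1 peak had 273 bases against 1232 for its promoter peak, and this Csf1r peak 1539 against 585.

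**Figure D1:**
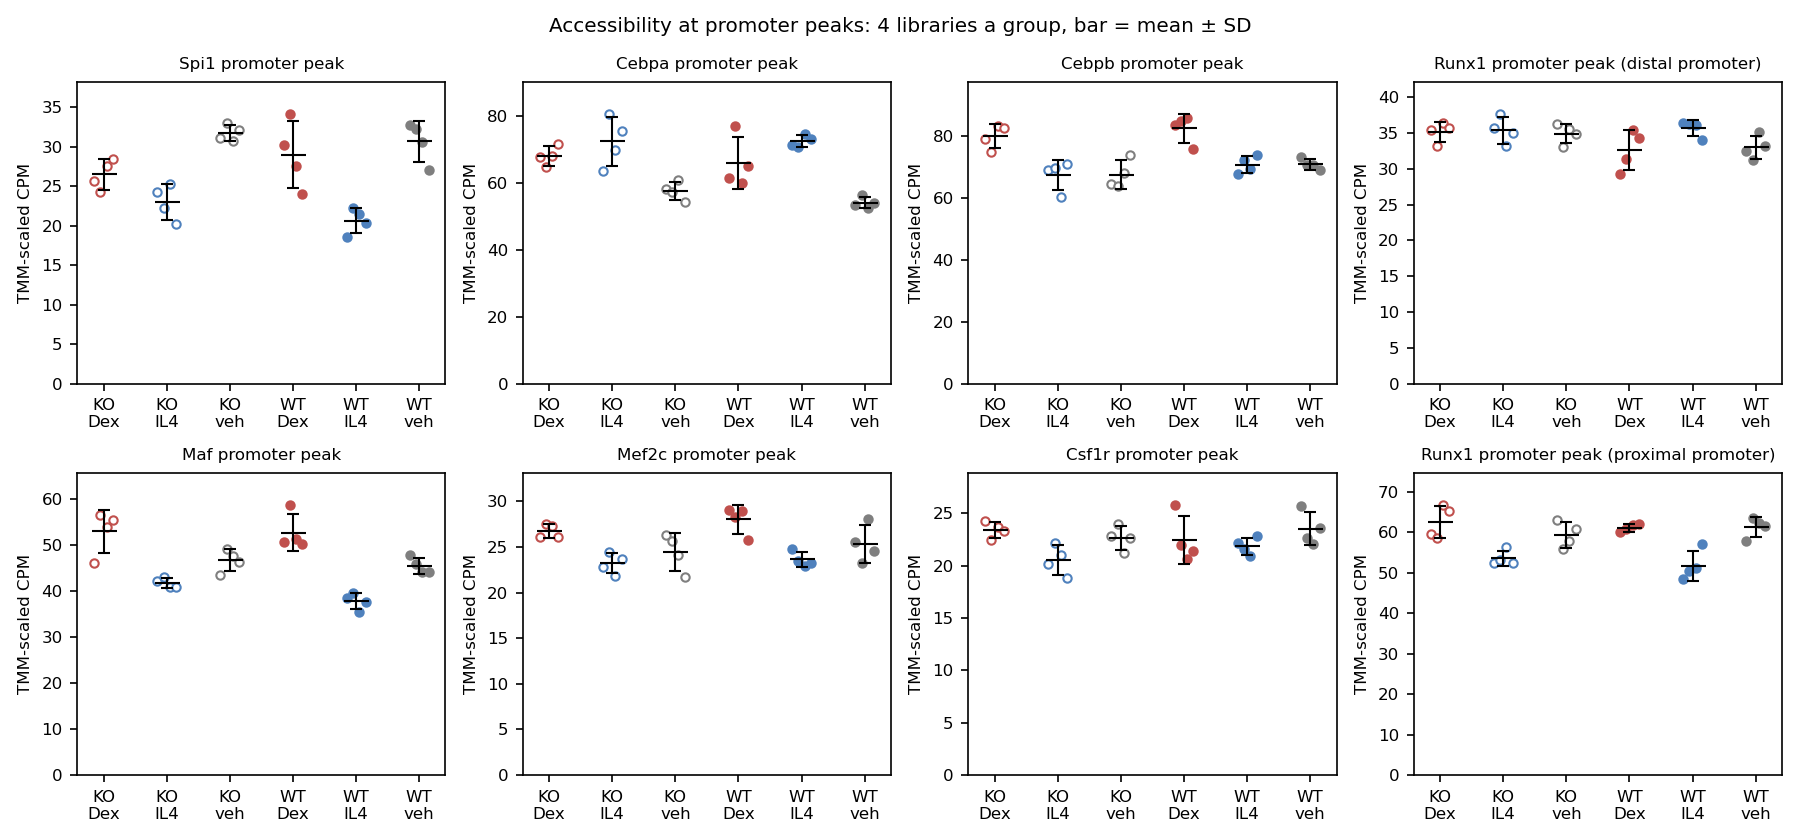
Level of the promoter peaks in CPM (vertical axis) by group (horizontal axis), 1 point per library and a bar at the mean of 4 libraries. The Spi1 promoter sits lower in the WT IL4 libraries than in every WT vehicle library, the Cebpa promoter sits higher, and the Mef2c and Csf1r promoters passed the test in neither WT treatment comparison.

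Dex and IL4 each changed part of these peaks, in both directions. Over all 180 tested peaks the largest changes were at distal sites and not at promoters. By gene, Cebpa with Dex and Cebpb with either agent had their largest called change at a promoter peak. Calls were made by edgeR's quasi-likelihood test, where the adjusted p was under 0.05 with Benjamini-Hochberg adjustment over all 130103 tested peaks. Dex in WT gave 25 higher and 22 lower of the 180, which is 26.1%, where 16.6% of all tested peaks were called, 8.56% higher and 8.08% lower. IL4 in WT gave 38 higher and 37 lower, which is 41.7%, where 35.4% of all tested peaks were called, 19.3% higher and 16.1% lower. The share called lay above the background in both comparisons, and the members also had more counts than the average peak, whose part in this was not tested. The 2 comparisons share the WT vehicle libraries, so their values are given side by side without a joint count. The split between higher and lower depended on the scaling for Dex: with loess offsets, which fit a scaling curve over peak abundance, it was 18 higher and 30 lower, and with library totals alone 22 higher and 27 lower. For IL4 these splits were 45 and 35 and 45 and 31. Peaks named below are the promoter peaks, the peaks with the most counts and the largest called changes of each gene, and further ones chosen after their values were seen. Of the 47 Dex calls, 28 were kept under every alternative setting and left-out library, and 52 of the 75 IL4 calls.

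By gene, Dex called 2 higher and 1 lower of 7 Spi1 peaks, 2 higher of 15 Cebpa peaks, 1 higher of 4 Cebpb peaks, 6 higher and 8 lower of 56 Runx1 peaks, 13 higher and 9 lower of 65 Maf peaks, 3 lower of 26 Mef2c peaks, and 1 higher and 1 lower of 7 Csf1r peaks. IL4 called 1 higher and 3 lower for Spi1, 4 higher and 3 lower for Cebpa, 1 lower for Cebpb, 16 higher and 6 lower for Runx1, 10 higher and 19 lower for Maf, 5 higher and 4 lower for Mef2c, and 2 higher and 1 lower for Csf1r. The median log2 fold change over the Runx1 peaks was 0.12 with IL4 and -0.13 with Dex, and over the Maf peaks -0.15 with IL4 and 0.06 with Dex, where the medians of all tested peaks were -0.01 with IL4 and 0.01 with Dex. With loess offsets the Runx1 medians were 0.22 with IL4 and -0.21 with Dex, and the Maf medians -0.03 with IL4 and -0.01 with Dex. Loess offsets also moved the medians of all tested peaks, to 0.03 with IL4 and -0.06 with Dex.

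The promoter of Spi1 lost accessibility with IL4. Sites upstream of it, which lie inside the annotated span of the gene, moved in different directions. The promoter peak (chr2:91096284-91097515, mm10) had 18.6, 22.2, 21.4 and 20.3 CPM in the 4 WT IL4 libraries, 30.3, 34.2, 27.6 and 24.03 CPM in WT Dex and 32.8, 32.2, 30.5 and 27.1 CPM in WT vehicle. Every IL4 library was below every vehicle library, while the Dex and vehicle ranges overlapped. The change with IL4 was -0.57 ± 0.08 (log2 fold change ± SE, adjusted p = 2.46e-08), and it was -0.36 with loess offsets; with Dex it was -0.12 ± 0.08 and was not called (adjusted p = 0.35), although loess offsets gave -0.25 and a call (adjusted p = 0.0117). A peak 7.43 kb upstream of the start (chr2:91089157-91089338) had 2.397, 2.69, 2.75 and 2.51 CPM in WT IL4, 7.11, 6.46, 5.09 and 5.65 CPM in WT Dex and 4.61, 4.02, 3.63 and 3.19 CPM in WT vehicle. It rose with Dex (0.62 ± 0.15, adjusted p = 0.00163) and fell with IL4 (-0.59 ± 0.18, adjusted p = 0.00565), and the IL4 call was lost without WT vehicle replicate 1 (adjusted p = 0.0584). Next to it, a peak 8.76 kb upstream rose with both (Dex 0.59 ± 0.12, adjusted p = 6.77e-05; IL4 0.46 ± 0.12, adjusted p = 0.00113), and the peak 10.2 kb upstream, its highest per kilobase, fell with Dex (-0.48 ± 0.10, adjusted p = 0.000139). The same peak had -0.28 ± 0.10 with IL4 (adjusted p = 0.0174), a call lost under loess offsets, library totals and without WT IL4 replicate 2 or 4 or WT vehicle replicate 2 (adjusted p up to 0.0772 for a left-out library). The peak with the most counts, 12.2 kb upstream, had 39.7 ± 1.902 CPM in WT IL4, 47.96 ± 3.65 CPM in WT Dex and 43.2 ± 5.46 CPM in WT vehicle (mean ± SD, n = 4 each) and was called in neither. The known upstream regulatory element through which PU.1 acts on its own gene, 13.8 kb from the start, is nearest to the listed start of Slc39a13 and was therefore not a member; chosen after its values were seen, it had 47.8 ± 1.7 CPM in WT IL4, 57.3 ± 3.7 CPM in WT Dex and 54.5 ± 5.4 CPM in WT vehicle, with -0.19 ± 0.07 for IL4 (adjusted p = 0.0274) and 0.07 ± 0.07 for Dex (adjusted p = 0.589).

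The Cebpa promoter gained accessibility with IL4, and the peaks around the gene moved both ways. The promoter peak (chr7:35118082-35119727) had 71.4, 70.6, 74.6 and 73.3 CPM in WT IL4, 61.6, 76.99, 60.1 and 65.2 CPM in WT Dex and 53.3, 56.3, 52.5 and 54.1 CPM in WT vehicle. All IL4 libraries and all Dex libraries were above the highest vehicle library. IL4 gave 0.42 ± 0.07 (adjusted p = 1.64e-07), called under every setting. Dex gave 0.27 ± 0.07 (adjusted p = 0.00192), which fell to 0.12 with loess offsets and was then not called (adjusted p = 0.237). Downstream, the peak 8.21 kb from the start (chr7:35126882-35128127) went the other way with IL4, with 16.8, 15.98, 14.7 and 20.02 CPM in WT IL4 against 29.9, 27.8, 25.7 and 23.4 CPM in WT vehicle (-0.67 ± 0.09, adjusted p = 8.63e-10). The groups did not overlap, and all WT Dex libraries, at 26.7, 23.6, 21.6 and 25.9 CPM, were above the WT IL4 libraries. A peak 20.7 kb downstream rose with IL4 by 0.65 ± 0.13 (adjusted p = 2.73e-05) and one 12.5 kb upstream fell (-0.62 ± 0.17, adjusted p = 0.00172). The myeloid enhancer known 37.4 kb downstream of Cebpa, nearest to the listed start of Slc7a10 and chosen after its values were seen, was called with neither (IL4 0.01 ± 0.10, adjusted p = 0.944; Dex 0.17 ± 0.10, adjusted p = 0.259).

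Cebpb had the fewest peaks, and its promoter, the peak of the gene with the most counts, had small differences between groups. The promoter peak (chr2:167687666-167689608) had 67.8, 72.3, 69.3 and 74.04 CPM in WT IL4, 83.8, 85.1, 85.8 and 75.8 CPM in WT Dex and 73.3, 70.7, 70.7 and 68.9 CPM in WT vehicle. Each WT Dex library was above each WT vehicle library, while IL4 and vehicle overlapped. Dex gave 0.21 ± 0.06 (adjusted p = 0.00973) and IL4 0.00 ± 0.07 (adjusted p = 0.988). Both depended on the scaling: loess offsets gave 0.05 for Dex (adjusted p = 0.547) and 0.32 for IL4 (adjusted p = 6.75e-07). Another promoter peak, of 196 bases and 0.836 kb downstream of the start (chr2:167689654-167689849), was the gene's only IL4 call in WT. It was lower with IL4, at -0.51 (adjusted p = 0.0334). That call was lost under 8 of 15 settings, DESeq2 and library totals among them (adjusted p up to 0.118).

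The chromatin of Runx1 held the largest IL4 response of all 180 peaks, at sites distant from both promoters. The peak 26.3 kb upstream of the distal start (chr16:92852020-92852770) had 20.8, 24.8, 23.8 and 21.6 CPM in WT IL4, 1.34, 1.48, 1.07 and 1.400 CPM in WT Dex and 2.304, 2.24, 3.42 and 4.02 CPM in WT vehicle. The IL4 libraries were several times above all others, and the Dex libraries were all below the vehicle libraries. IL4 gave 2.94 ± 0.14 (adjusted p = 1.94e-33) and Dex -1.16 ± 0.22 (adjusted p = 3.22e-05). A smaller peak 16.2 kb upstream of the distal start (chr16:92841966-92842623) showed the same pair of directions, with 3.55, 4.27, 4.08 and 3.07 CPM in WT IL4, 0.563, 1.11, 1.07 and 0.700 CPM in WT Dex and 1.31, 2.01, 2.35 and 2.27 CPM in WT vehicle. Again the 3 groups did not overlap (IL4 0.96 ± 0.22, adjusted p = 0.00027; Dex -1.28 ± 0.30, adjusted p = 9e-04).

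Other Runx1 sites passed the test against vehicle for one agent. Inside the gene, 13.1 kb upstream of the proximal start (chr16:92710269-92710600), a peak had 3.06, 4.45, 4.59 and 2.98 CPM in WT IL4 and 0.384, 1.01, 0.534 and 0.618 CPM in WT vehicle, a rise of 2.62 ± 0.27 (adjusted p = 1.79e-13), with -0.57 ± 0.43 for Dex (adjusted p = 0.409). The stronger peak 24.5 kb downstream of the distal start (chr16:92800736-92802421), in the region of the haematopoietic enhancer known in the first intron of the mouse gene, had 27.7, 33.5, 33.1 and 28.6 CPM in WT IL4, 16.2, 19.6, 19.9 and 19.9 CPM in WT Dex and 17.3, 20.9, 21.4 and 16.7 CPM in WT vehicle. It rose with IL4 by 0.70 ± 0.09 (adjusted p = 6.82e-11) and its Dex and vehicle libraries overlapped (-0.01 ± 0.09, adjusted p = 0.97). With Dex, peaks 78.1 kb and 43.8 kb upstream of the distal start rose, by 1.05 ± 0.21 (adjusted p = 7.13e-05) and 0.99 ± 0.16 (adjusted p = 1.55e-06), with -0.19 and -0.47 for IL4, neither called. The peak 21.9 kb upstream of it fell with Dex, to 8.36 ± 0.759 CPM in WT Dex against 13.4 ± 1.32 CPM in WT vehicle (-0.71 ± 0.11, adjusted p = 7.43e-07), and had 0.13 with IL4. The largest Dex change of the gene was 183 kb upstream (-1.28 ± 0.23, adjusted p = 1.59e-05).

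By region, IL4 called 9 higher and none lower of the 19 peaks between the Runx1 start sites, against 5 higher and 3 lower of the 24 upstream of the distal start, where 19.3% of all tested peaks were called higher and 16.1% lower with IL4. Dex called 3 higher and 1 lower between the start sites, and 2 higher and 6 lower upstream, of which 1 higher and 5 lower lay within 50 kb of the distal start; 8.56% of all tested peaks were called higher and 8.08% lower with Dex. With loess offsets the 9 higher and none lower between the start sites with IL4 were the same counts. The regions were not tested against each other. The promoters moved less than these sites. The proximal promoter, the gene's peak with the most counts, had 51.8 ± 3.698 CPM in WT IL4, 61.2 ± 0.971 CPM in WT Dex and 61.3 ± 2.398 CPM in WT vehicle. Its IL4 value of -0.24 ± 0.06 (adjusted p = 0.00143) turned to 0.05 with loess offsets (adjusted p = 0.589). The distal promoter had 35.7 ± 1.09 CPM in WT IL4, 32.6 ± 2.798 CPM in WT Dex and 33.03 ± 1.61 CPM in WT vehicle; IL4 gave 0.11 ± 0.07 and no call (adjusted p = 0.213), but 0.35 and a call with loess offsets (adjusted p = 1.92e-05) and 0.17 with library totals (adjusted p = 0.0328).

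**Figure D2:**
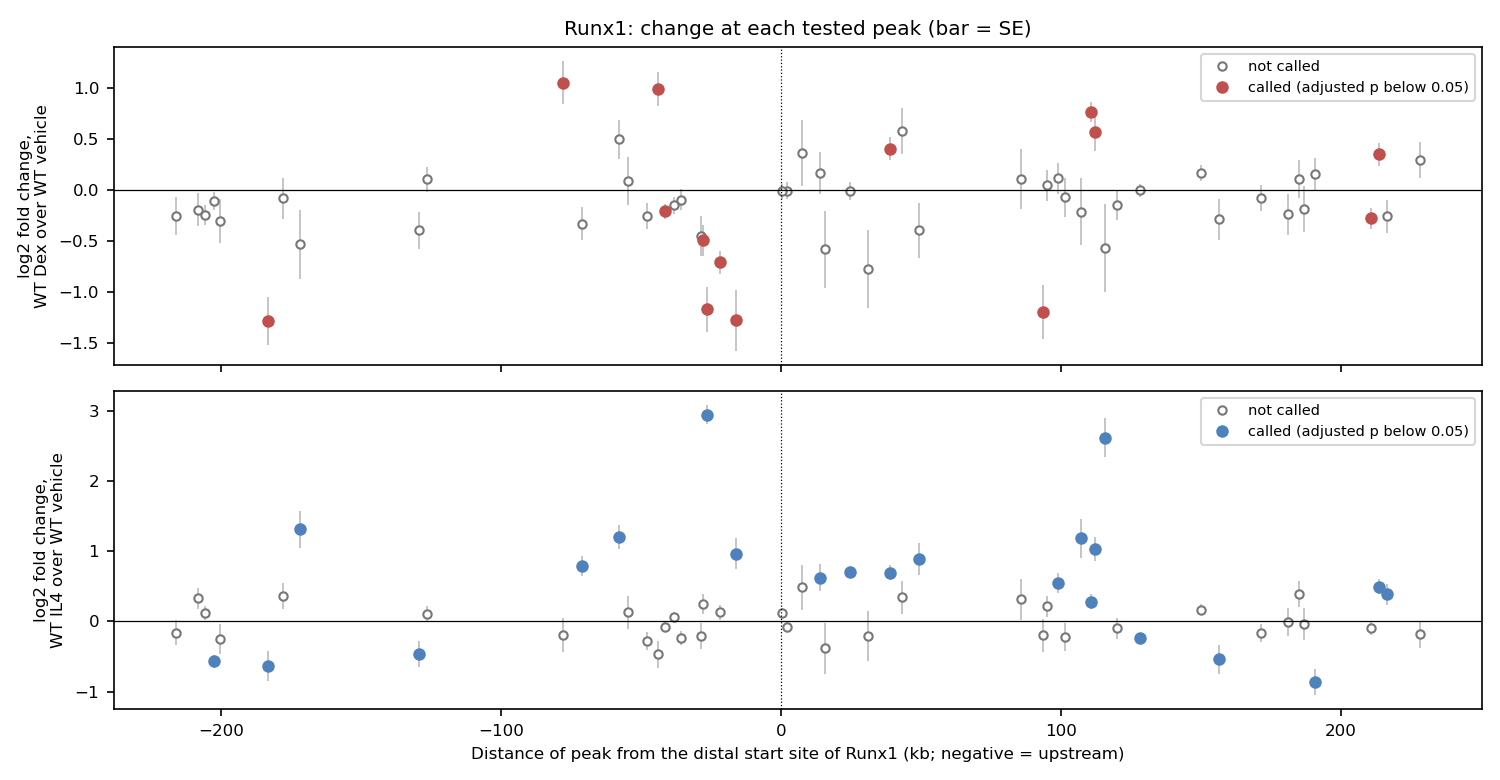
Log2 fold change over WT vehicle of each tested Runx1 peak (vertical axis) by distance in kb from the distal start site (horizontal axis), for WT Dex and WT IL4. The peak 26.3 kb upstream stands out with IL4 at 2.94 and lies at -1.16 with Dex, and none of the peaks between the start sites was called lower with IL4.

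Of the upstream sites of Csf1r, 2 rose and 1 fell with IL4, while its promoter was not called with either agent. The promoter peak had 21.9 ± 0.814 CPM in WT IL4, 22.4 ± 2.29 CPM in WT Dex and 23.5 ± 1.59 CPM in WT vehicle (IL4 -0.11 ± 0.08, adjusted p = 0.299; Dex -0.07 ± 0.08, adjusted p = 0.608). The peak 18.5 kb upstream (chr18:61086941-61087271) had 7.94, 8.896, 10.7 and 7.45 CPM in WT IL4, 5.21, 4.25, 5.17 and 3.69 CPM in WT Dex and 2.61, 2.91, 2.78 and 2.78 CPM in WT vehicle. The 3 groups did not overlap, with IL4 highest and Dex between: IL4 gave 1.66 ± 0.16 (adjusted p = 2.14e-15) and Dex 0.72 ± 0.17 (adjusted p = 0.00151). The higher peak 14.4 kb upstream (chr18:61090602-61091806) had 28.7, 30.6, 31.8 and 33.2 CPM in WT IL4, 12.8, 14.96, 16.1 and 14.9 CPM in WT Dex and 17.1, 19.2, 22.96 and 21.1 CPM in WT vehicle. Here the groups separated in the other way, with Dex below vehicle (-0.45 ± 0.10, adjusted p = 0.000258) and IL4 above it (0.63 ± 0.09, adjusted p = 4.37e-09). The peak 3.997 kb upstream fell with IL4 (-0.40 ± 0.12, adjusted p = 0.00384). The peak in the region of FIRE, the intronic enhancer known to drive the gene in macrophages, had 77.2 ± 3.05 CPM in WT IL4, 88.9 ± 8.22 CPM in WT Dex and 81.1 ± 2.44 CPM in WT vehicle. It was not called with IL4 (-0.07 ± 0.06, adjusted p = 0.433) unless loess offsets were used (0.26, adjusted p = 2.41e-05).

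Dex raised accessibility at 8 sites within 200 kb downstream of Maf, where it lowered none, and changed sites farther out in both directions. Of the 22 tested peaks within 200 kb, Dex called 8 higher and none lower, with a median log2 fold change of 0.34; 8.56% of all tested peaks were called higher. Of the 17 peaks 200 to 400 kb downstream, Dex called 1 higher and 4 lower, and IL4 none higher and 7 lower. With loess offsets the Dex counts were 7 higher and none lower in the nearer region and 1 higher and 6 lower in the farther one. Of all tested peaks, 8.08% were called lower with Dex and 16.1% with IL4. Of the 12 peaks 400 to 620 kb downstream, Dex called 1 higher and 3 lower, with a median of 0.03. The regions were drawn after the values were seen and were not tested against each other. The peak 92.5 kb downstream (chr8:115614005-115614755) had 13.6, 16.2, 12.8 and 12.4 CPM in WT IL4, 31.2, 42.3, 35.5 and 33.6 CPM in WT Dex and 19.4, 21.7, 23.6 and 19.5 CPM in WT vehicle. The groups did not overlap, with Dex highest and IL4 lowest; Dex gave 0.74 ± 0.09 (adjusted p = 4.08e-11) and IL4 -0.59 ± 0.09 (adjusted p = 2.2e-07). Its neighbour 94.7 kb downstream also rose with Dex (0.59 ± 0.10, adjusted p = 1.13e-06), as did the peaks 125 kb (0.50 ± 0.10, adjusted p = 0.000191) and 136 kb downstream (0.88 ± 0.22, adjusted p = 0.00198). IL4 values for these 3 were -0.18, -0.06 and 0.16, none of them called.

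In the same region, within 200 kb downstream, IL4 called 4 peaks higher and 5 lower of 22, or 4 and 6 with loess offsets. Of all tested peaks, 19.3% were called higher and 16.1% lower with IL4. The peak 167 kb downstream (chr8:115539663-115539963) had 5.87, 6.79, 6.93 and 6.33 CPM in WT IL4, 3.24, 4.25, 3.12 and 3.87 CPM in WT Dex and 0.999, 2.12, 3.097 and 1.96 CPM in WT vehicle. IL4 libraries were highest and Dex libraries came next, with no overlap of the 3 groups. IL4 gave 1.72 ± 0.20 (adjusted p = 2.09e-10) and Dex 0.86 ± 0.23 (adjusted p = 0.00422), the Dex call being lost without WT vehicle replicate 1 (adjusted p = 0.0747). The peak 177 kb downstream rose with IL4 (1.25 ± 0.14, adjusted p = 8.3e-13), and upstream of the gene so did the one 106 kb away (1.14 ± 0.25, adjusted p = 0.000144). Farther out, sites closed with both agents. The peak 295 kb downstream (chr8:115411897-115412260) had 1.16, 0.936, 1.43 and 1.49 CPM in WT IL4, 2.11, 1.66, 0.656 and 0.933 CPM in WT Dex and 4.76, 2.79, 3.84 and 1.85 CPM in WT vehicle. All IL4 libraries were below all vehicle libraries, and the highest Dex library was above the lowest vehicle library. IL4 gave -1.48 ± 0.26 (adjusted p = 4.91e-06) and Dex -1.42 ± 0.26 (adjusted p = 2.73e-05). The larger peaks 309 kb and 315 kb downstream fell too, at -0.68 ± 0.10 and -0.48 ± 0.11 with IL4 and at -0.64 ± 0.10 and -0.91 ± 0.12 with Dex (log2 fold change ± SE, the highest adjusted p of the 4 being 0.000629). Upstream, the peak 315 kb away had the largest Dex change of the gene, with 0.909, 0.527, 0.510 and 1.397 CPM in WT IL4, 0.634, 0.369, 0.410 and 0.793 CPM in WT Dex and 1.69, 2.01, 2.56 and 1.44 CPM in WT vehicle. Every treated library was below every vehicle library (Dex -1.62 ± 0.32, adjusted p = 7.48e-05; IL4 -1.23 ± 0.31, adjusted p = 0.000849).

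The Maf promoter moved less and in a way that depended on the scaling. It had 37.8 ± 1.74 CPM in WT IL4, 52.8 ± 3.995 CPM in WT Dex and 45.6 ± 1.77 CPM in WT vehicle (mean ± SD, n = 4 each). Dex gave 0.19 ± 0.07 (adjusted p = 0.0343), with 0.05 under loess offsets. This call was lost under 8 of 15 settings: loess offsets, library totals, the fit of the groups compared only, DESeq2, and without WT Dex replicate 2 or WT vehicle replicate 2, 3 or 4 (adjusted p up to 0.135 for a left-out library). IL4 gave -0.27 ± 0.07 (adjusted p = 0.00116), but a value of 0.00 that was not called with loess offsets (adjusted p = 0.992).

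**Figure D3:**
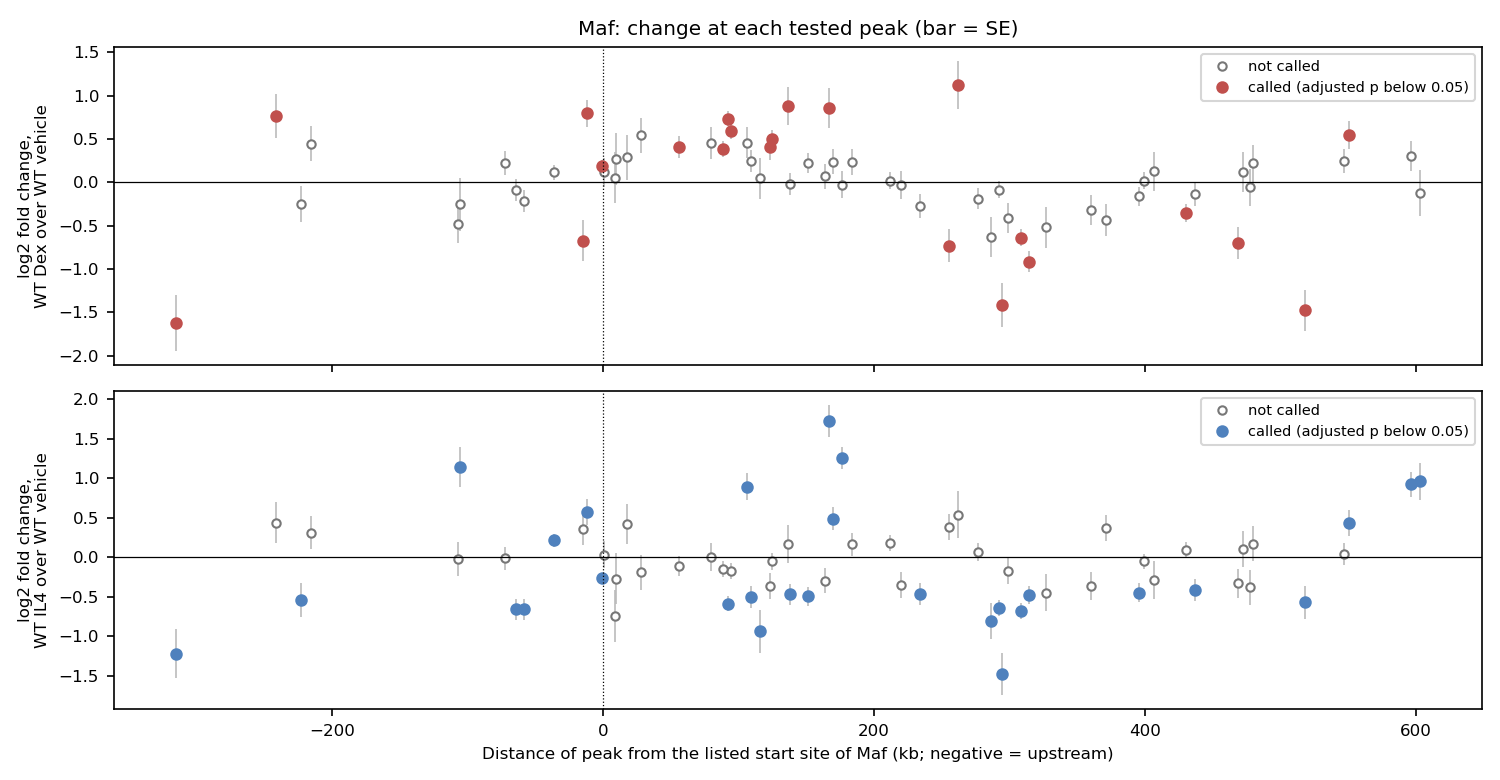
Log2 fold change over WT vehicle of each tested Maf peak (vertical axis) by distance in kb from the Maf start site (horizontal axis, downstream positive), for WT Dex and WT IL4. Between 0 and 200 kb downstream the 8 called Dex changes are all above 0, and at 294.8 kb both agents lie below -1.

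No Mef2c peak was called higher with Dex in WT, and its promoter was called with neither agent. The promoter peak (chr13:83523633-83525161) had 23.6 ± 0.814 CPM in WT IL4, 28.01 ± 1.55 CPM in WT Dex and 25.3 ± 2.05 CPM in WT vehicle (IL4 -0.10 ± 0.08, adjusted p = 0.337; Dex 0.14 ± 0.08, adjusted p = 0.239). Inside the gene, a peak 15.2 kb downstream of a listed start (chr13:83539941-83540241) had 1.57, 1.11, 1.02 and 1.02 CPM in WT IL4, 1.34, 1.11, 0.903 and 0.887 CPM in WT Dex and 2.53, 2.91, 1.495 and 1.65 CPM in WT vehicle. Every Dex library was below every vehicle library, and IL4 overlapped with both. The peak fell with Dex (-1.05 ± 0.28, adjusted p = 0.00433). With IL4 it gave -0.86 ± 0.28 (adjusted p = 0.00994), a call lost without WT vehicle replicate 1 or 2 (adjusted p up to 0.0622). The peak 1.32 kb upstream of another listed start, the gene's highest per kilobase, fell with IL4, to between 14.2 and 18.7 CPM in the WT IL4 libraries against between 20.2 and 30.2 CPM in the WT vehicle libraries (-0.61 ± 0.12, adjusted p = 0.000164). Weakly open sites far upstream, 389 kb and 391 kb away, rose with IL4. The nearer one had 2.34 ± 0.172 CPM in WT IL4 against 1.03 ± 0.236 CPM in WT vehicle (1.17 ± 0.26, adjusted p = 0.000152), and the farther one 1.93 ± 0.403 CPM in WT IL4 against 0.857 ± 0.197 CPM in WT vehicle (1.16 ± 0.29, adjusted p = 0.000784).

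**Figure D4:**
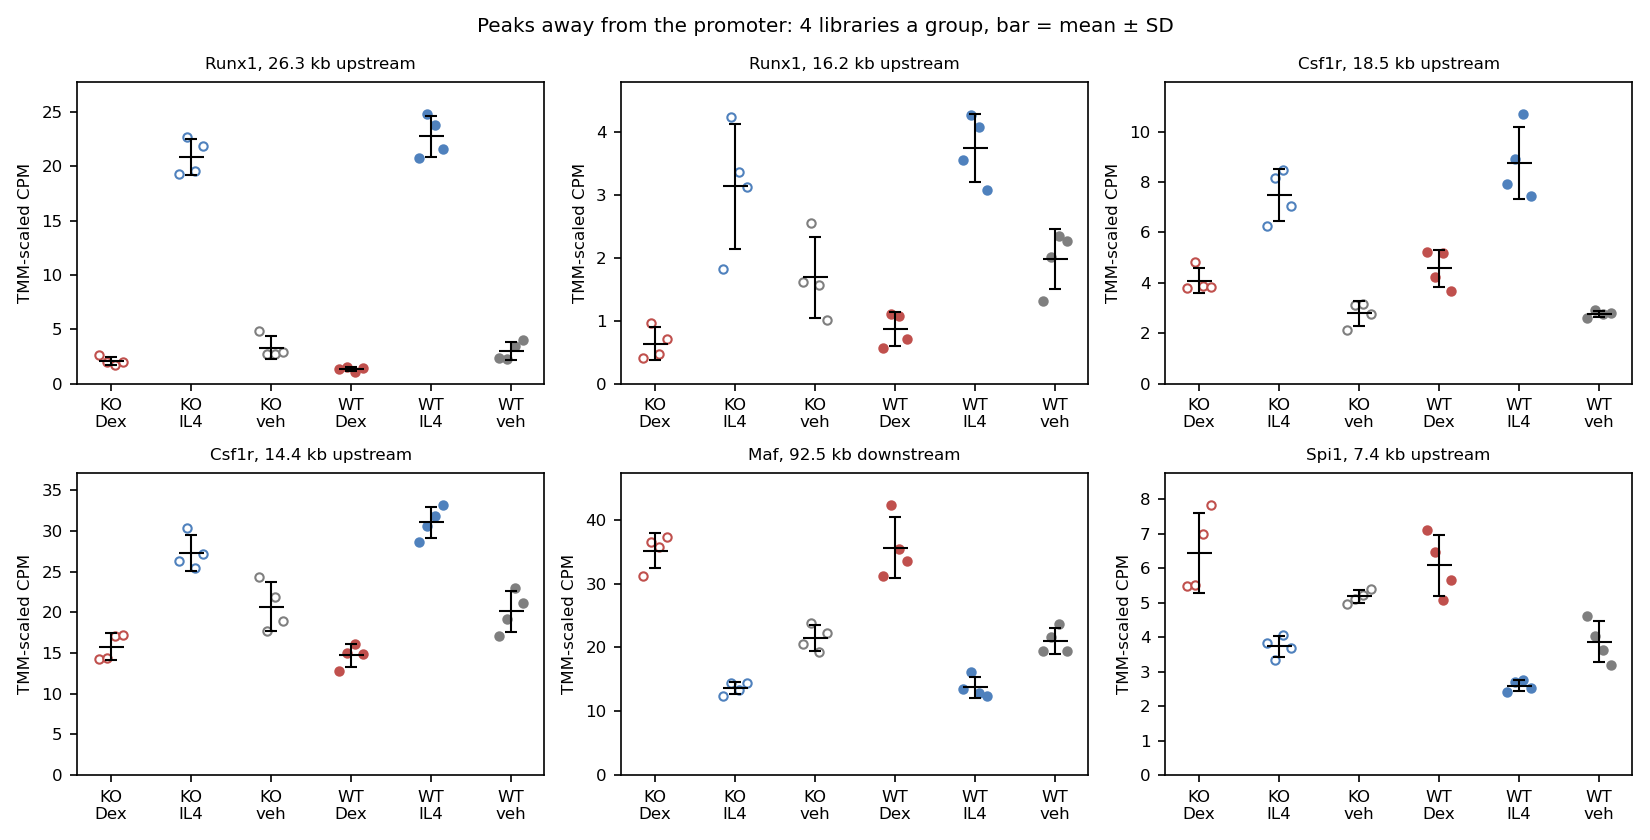
CPM (vertical axis) in each library of distal peaks of Spi1, Runx1, Maf and Csf1r by group (horizontal axis). There is 1 point per library and a bar at the mean of 4. The Runx1 peak 26.3 kb upstream lies between 20.8 and 24.8 CPM in WT IL4, above all Dex and vehicle libraries.

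Setting the WT IL4 libraries against the WT Dex libraries called the most peaks. It gave 46 peaks higher in IL4 and 44 lower, or 50.0% of the 180, where 45.1% of all tested peaks were called, 23.4% higher and 21.7% lower. The split depended on the scaling: loess offsets gave 64 higher and 29 lower, and library totals alone gave 59 higher and 28 lower. Library totals also moved the median of all tested peaks, to 0.09 from -0.02 with TMM, and 57 of the 90 calls held under every setting. Runx1 had 22 higher and 7 lower of 56, Maf 12 higher and 21 lower of 65, Mef2c 6 higher and 4 lower of 26, Csf1r 3 higher and 1 lower of 7, Cebpa 3 higher and 4 lower of 15, Spi1 4 lower of 7 and Cebpb 3 lower of 4. The largest difference was the Runx1 peak 26.3 kb upstream, at 4.11 ± 0.15 (log2 fold change ± SE of IL4 over Dex, adjusted p = 8.08e-41). Among the others were the Csf1r peak 14.4 kb upstream (1.08 ± 0.09), the Mef2c peak 64.1 kb downstream of a listed start (1.56 ± 0.26), the Maf peak 92.5 kb downstream (-1.33 ± 0.09) and the Spi1 peak 7.43 kb upstream (-1.21 ± 0.16), each with an adjusted p of at most 2.36e-07.

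The same questions were asked in KO macrophages. Dex in KO called 20 peaks higher and 16 lower (20%; 13.6% of all tested peaks, 6.97% higher and 6.63% lower), with 13 higher and 20 lower under loess offsets and 16 higher and 21 lower with library totals. IL4 in KO called 34 higher and 29 lower (35%; 31.0% of all tested peaks, 17.0% higher and 13.9% lower), with 41 higher and 24 lower under loess offsets and 36 higher and 24 lower with library totals. Of the peaks that Dex called higher, 16 were shared, out of 20 in KO and 25 in WT, and of those called lower 12 were shared, out of 16 in KO and 22 in WT. With IL4, 30 peaks were called higher in both, out of 34 in KO and 38 in WT, and 21 lower in both, out of 29 in KO and 37 in WT. No peak was called in opposite directions. The overlap of calls was not counted over all tested peaks, so these counts do not show sharing particular to these genes. Over the 180 peaks, the KO and WT effects had a Pearson correlation of 0.836 for Dex and 0.894 for IL4, given as a description: the peaks were counted in the same libraries, and over all tested peaks the values were 0.705 and 0.848.

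At the single peaks given in this paragraph, the KO changes had the same sign as the WT changes. Signs could differ at sites that were not called: the enhancer 37.4 kb downstream of Cebpa had 0.01 with IL4 in WT and -0.19 in KO. The Runx1 peak 26.3 kb upstream had 19.3, 22.7, 19.6 and 21.9 CPM in KO IL4, 2.59, 1.99, 1.73 and 1.95 CPM in KO Dex and 4.85, 2.697, 2.75 and 2.93 CPM in KO vehicle. IL4 gave 2.70 ± 0.14 in KO (adjusted p = 1.61e-30) and 2.94 ± 0.14 in WT; Dex gave -0.66 ± 0.20 in KO (adjusted p = 0.0141) and -1.16 ± 0.22 in WT, and the KO Dex call was lost without KO Dex replicate 3 or KO vehicle replicate 1 (adjusted p up to 0.163). The Maf peak 92.5 kb downstream had 12.4, 14.4, 13.3 and 14.4 CPM in KO IL4, 31.1, 36.5, 35.8 and 37.3 CPM in KO Dex and 20.5, 23.8, 19.2 and 22.3 CPM in KO vehicle, with a Dex change of 0.70 ± 0.08 in KO (adjusted p = 1.54e-10) and 0.74 ± 0.09 in WT. Within 200 kb downstream of Maf, Dex in KO called 7 higher and none lower of 22. The Csf1r peak 14.4 kb upstream had -0.36 ± 0.09 with Dex (adjusted p = 0.00384) and 0.43 ± 0.09 with IL4 in KO (adjusted p = 7.9e-05), and the Spi1 promoter had -0.47 ± 0.08 with IL4 in KO (adjusted p = 2.72e-06).

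Few of these peaks were called between KO and WT, as few were among all tested peaks, and no such call held under every setting. With vehicle, 1 of 180 was called between KO and WT (0.616% of all tested peaks): a Maf peak 14.3 kb upstream (chr8:115721090-115721317) with 1.37, 0.994, 0.785 and 2.02 CPM in KO vehicle against 2.38, 1.79, 3.204 and 2.99 CPM in WT vehicle (-0.98 ± 0.26, adjusted p = 0.0407). The 2 ranges overlapped, and the call was lost under 9 of 15 settings. These were DESeq2, library totals, the fit of the groups compared only, and leaving out KO vehicle replicate 1, 2 or 3 or WT vehicle replicate 1, 3 or 4, with an adjusted p of up to 0.224 for a left-out library. With Dex, 1 of 180 was called (0.953% of all tested peaks): a Runx1 peak 127 kb upstream of the distal start (chr16:92952279-92953023) with 7.76, 8.05, 7.63 and 7.34 CPM in KO Dex against 11.6, 9.23, 10.1 and 11.7 CPM in WT Dex (-0.51 ± 0.12, adjusted p = 0.00984). Every KO library was below every WT library, but the call was lost without KO Dex replicate 4 or without WT Dex replicate 4 (adjusted p up to 0.0947). With IL4, edgeR called none of 180 (0.841% of all tested peaks), DESeq2 called none, and 11 had an unadjusted p under 0.05. Unadjusted p under 0.05 was reached by 11 peaks with vehicle and 23 with Dex. The tests of whether Dex or IL4 acted differently in KO and in WT called none of 180 in edgeR or DESeq2, with 6 peaks each at an unadjusted p under 0.05; of all tested peaks edgeR called 0% for Dex and 0.00231% for IL4. Apart from those named, no difference between genotypes was detected at these peaks.

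**Figure D5:**
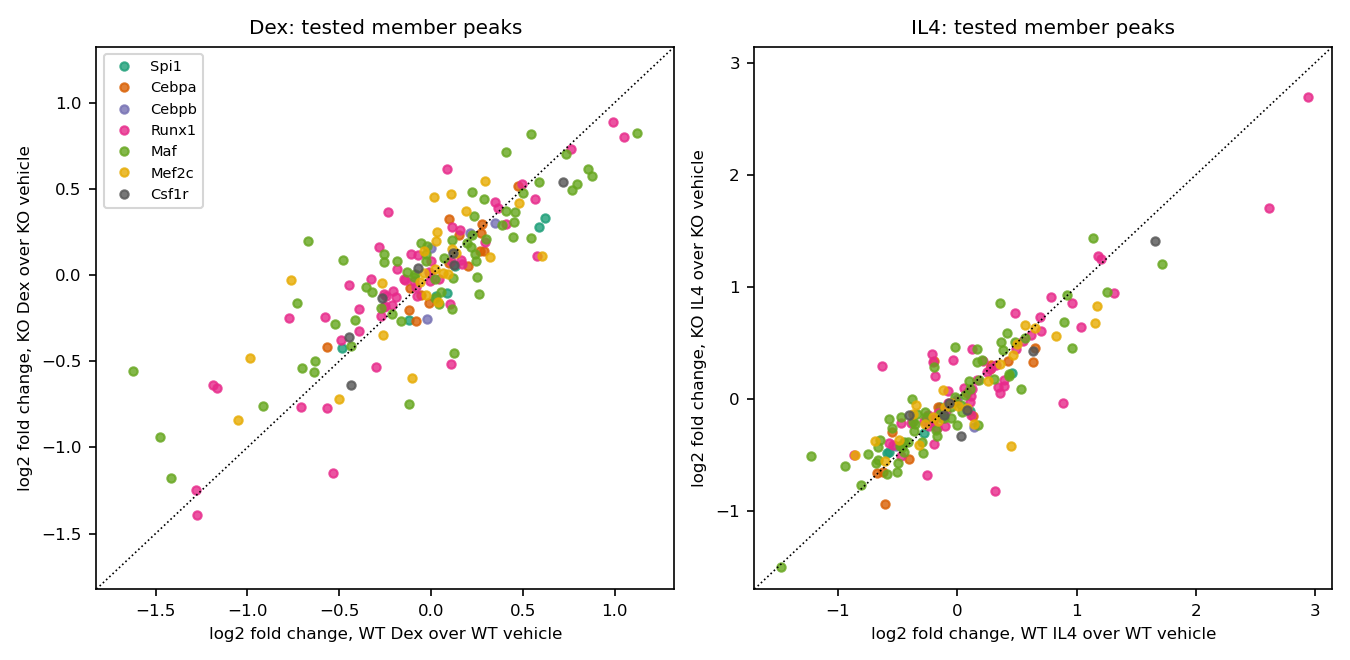
Log2 fold change over vehicle in KO (vertical axis) against WT (horizontal axis) for the 180 tested peaks, for Dex and for IL4, 1 point per peak. No peak called in both genotypes lies in opposite quadrants.

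Relatives and partners of the 7 genes, on lists that were chosen with earlier results of these data known, were called in shares to be read against the 16.6% of all tested peaks called with Dex and the 35.4% called with IL4. Of 35 tested peaks of the other C/EBP genes Cebpd, Cebpe and Cebpg, Dex called 5 higher and none lower and IL4 10 higher and 4 lower, near those shares, including a peak 8.27 kb upstream of Cebpg with Dex (1.27 ± 0.09, adjusted p = 1.57e-20) and one 27.8 kb downstream of Cebpd with IL4 (2.75 ± 0.28, adjusted p = 2.34e-14). Of 66 peaks of Runx2, Runx3 and Cbfb, which encodes the shared partner of RUNX proteins, Dex called 5 higher and 8 lower and IL4 14 higher and 11 lower, also near them; with loess offsets these counts were 4 and 13 with Dex and 17 and 7 with IL4. Within these, a Runx3 peak 37.3 kb downstream rose with Dex by 2.93 ± 0.21 (adjusted p = 4.18e-21) and a Runx2 peak 41.5 kb downstream rose with IL4 by 3.15 ± 0.22 (adjusted p = 3.1e-22). Of 41 peaks of Mef2a, Mef2b and Mef2d, Dex called 8 higher and 4 lower (7 and 5 with loess offsets), while IL4 called 1 higher and 13 lower (1 and 6 with loess offsets). Mef2a alone had 8 higher and 3 lower of 30 with Dex and 1 higher and 9 lower with IL4. By direction, 8.56% of all tested peaks were called higher and 8.08% lower with Dex, and 19.3% higher and 16.1% lower with IL4.

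Another list held Csf1 and Il34, which encode the ligands of the Csf1r product, and the cytokine receptor genes Csf2ra, Csf2rb and Csf3r. For this list, IL4 called 18 higher and 6 lower of 52 and Dex 3 higher and 6 lower (2 and 7 with loess offsets). Of all tested peaks, IL4 called 19.3% higher and 16.1% lower, and Dex 8.56% higher and 8.08% lower. By ligand, 10 of 19 peaks of Csf1 were called higher with IL4 and none lower, the largest 31.8 kb downstream (2.72 ± 0.24, adjusted p = 1.32e-16), whereas 4 of 11 peaks of Il34 were called lower with IL4 and 5 lower with Dex. The 2 ligands were not tested against each other. Of 157 peaks of other ETS genes, IL4 called 31 higher and 24 lower (38 and 17 with loess offsets) and Dex 13 higher and 18 lower, near the shares of all tested peaks called; Ets1 had 9 of 27 lower with Dex and 9 higher and 3 lower with IL4. Of 181 peaks of other myeloid and progenitor factors, IL4 called 51 higher and 36 lower and Dex 31 higher and 8 lower, the Dex counts being 16 and 13 with loess offsets. Median log2 fold changes for the lists lay between -0.18 and 0.27 with IL4 and between -0.07 and 0.13 with Dex.

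The promoter peaks of other genes whose pattern over the 24 libraries was most like that of each member were looked up by the Pearson correlation of log2 CPM among 13874 or 13875 others. For Spi1 these were Tmem176b (0.909) and Arhgap27os3 (0.879), for Cebpa Fzd7 (0.904) and Elmo2 (0.894), for Cebpb Nfil3 (0.918) and Plekhf2 (0.894), for Maf Lsm6 (0.938) and Rps6ka3 (0.934), and for Mef2c Hdac11 (0.908) and Slco2b1 (0.850). The Csf1r promoter had Lrif1 (0.770) and Neto2 (0.750), and the distal Runx1 promoter Dio2 (0.684) and Slc28a1 (0.681). These values share libraries, depth and scaling and are a description only.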

How the data were processed

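Per the submitters' processing notes, the tools were fastp, Bowtie2, SAMtools, MACS2, featureCounts and edgeR with build mm10; no version or setting is given in the sources used here. The authors deposited raw counts per peak for 24 libraries on 1 shared peak set, so peaks were not called per group here, and a differential table with log2 fold changes, scores and p-values of their own, from which gene names, distances and FANTOM overlaps were taken. Of 136 member peaks, the deposited log2 fold changes and those computed here differed by at most 0.0285 over 7 comparisons (the largest for IL4 in WT).

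From the counts, edgeR 4.0.16 (R 4.3.3, limma 3.58.1) was run with TMM factors (0.935 to 1.07), its default filter on low counts, which left 130103 peaks, and a robust quasi-likelihood fit with 1 mean for each of 6 groups; peaks with an adjusted p under 0.05 after Benjamini-Hochberg adjustment were called. Per gene, the peaks named by rule were the promoter peak, the peak with the highest mean CPM and the largest called change in each comparison. The members and lists were chosen with earlier results of these data known; 1 list is not reported here. The fit was tested on simulated data. Alternatives were DESeq2 1.42.0, other scalings, no filter, only the groups compared, only peaks with a deposited gene name, a replicate block and leaving out each library. No pair of libraries in a group was alike within sampling noise (chi-square per degree of freedom at least 1.09).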

Additional observations from a re-analysis of the deposited data

Results flagged for a closer look

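In 7 of 186 groups of 4 libraries, 1 library lay far from the other 3 on a test of the gap to its nearest neighbour against the whole range. Chance flags about 1 in 20 groups, so 7 is no more than chance gives. At the distal Runx1 promoter, WT IL4 replicate 4 had 34.1 CPM, with the others at 36.2 to 36.4 CPM. At the Runx1 peak 26.3 kb upstream, KO vehicle replicate 1 had 4.85 CPM, with the others at 2.70 to 2.93 CPM; this library also decides the Dex call there in KO. At the Runx1 peak 126.6 kb upstream, WT vehicle replicate 2 had 10.7 CPM, with the others at 9.91 to 10.0 CPM. At the Maf promoter, WT Dex replicate 2, the shallowest library, had 58.7 CPM, with the others at 50.3 to 51.3 CPM. At the Maf peak 105.7 kb upstream, WT IL4 replicate 4 had 1.68 CPM, with the others at 2.75 to 2.81 CPM. At the Mef2c peak 15.2 kb downstream of a listed start, WT IL4 replicate 1 had 1.57 CPM, with the others at 1.02 to 1.11 CPM. At the Csf1r peak 18.5 kb upstream, KO Dex replicate 2 had 4.81 CPM, with the others at 3.78 to 3.85 CPM; the Dex call at this peak in KO was lost without that library.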

How the results depend on the processing

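The counts of called peaks for the WT and KO treatment comparisons stayed within 1.5 times of the reported ones under all 8 alternatives: 38 to 50 for Dex in WT, 61 to 80 for IL4 in WT, 71 to 93 for IL4 against Dex, 28 to 38 for Dex in KO and 49 to 65 for IL4 in KO. Between KO and WT, the Dex count was 2 with library totals and with loess offsets, and the vehicle count was 0 with DESeq2, library totals and only the groups compared; the cause was not tested. Leaving out 1 library gave 36 to 50 for Dex in WT, 62 to 73 for IL4 in WT, 77 to 88 for IL4 against Dex, 26 to 36 for Dex in KO, 47 to 63 for IL4 in KO, 0 to 1 for KO against WT with vehicle, 0 to 2 with Dex, 0 to 1 with IL4, and 0 to 0 for both tests of a different response. Of the checks on the largest called change of each gene and comparison, 492 kept their side of the threshold and 48 lost their call, with none reversed. Among the other called peaks, loess offsets turned the sign of 2 with IL4 in WT, the Maf promoter and the proximal Runx1 promoter. They also turned 6 for IL4 against Dex: the Cebpb, Mef2c and proximal Runx1 promoters, the Csf1r peak 2.52 kb downstream and the Spi1 peaks 12.2 kb upstream and 1.75 kb downstream; the cause was not tested. The labels do not say that equal replicate numbers pair libraries. Deviations from the group mean were nevertheless alike by number within a genotype. For Dex in WT and IL4 in WT, 4 of 4 treated libraries correlated best with the vehicle library of their own number (Pearson 0.051 to 0.202 and 0.053 to 0.140). In KO this held for 3 of 4 with Dex and 4 of 4 with IL4, and between genotypes for 0 of 4. The main fit had no replicate term. With the replicate as a block, shared by both genotypes, 50 peaks were called for Dex in WT and 77 for IL4 in WT. Promoter changes under 0.3 depended on the scaling, and depth limits weak peaks.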
